A study of Homo sapiens with 12 samples.

Results

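Retinoid receptors and their corepressors were followed in MOLM-13 cells after treatment with the hypomethylating drug decitabine (DAC), the retinoid all-trans retinoic acid (ATRA) or both. The genes were the retinoic acid receptors RARA, RARB and RARG, the retinoid X receptors RXRA and RXRB, and the corepressor genes NRIP1 and NCOR1. They are 7 of 46639 gene symbols in the deposited table and were chosen by symbol, with the rows of a symbol summed. MOLM-13 is an established acute myeloid leukemia line with an MLL rearrangement and no PML/RARA fusion.

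Total RNA was sequenced from 4 groups of 3 libraries each. Untreated cells carry a 96 h label, and the DAC (100 nM), ATRA (1 µM) and DAC+ATRA (both at these doses) groups carry a 72 h label. All cells grew in RPMI with fetal calf serum, antibiotics and GM-CSF. DAC was renewed daily, and ATRA was added with the last DAC dose by the study's methods but throughout by the labels. No vehicle-treated library was analysed here, so label time and solvent cannot be told apart from treatment in comparisons with untreated cells. The libraries are labelled as technical triplicates, so p-values measure the spread between libraries of 1 experiment.

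As background, a retinoic acid receptor pairs with a retinoid X receptor on DNA. Without ligand the pair holds corepressor complexes with histone deacetylases, and retinoic acid exchanges them for coactivators. NCOR1 belongs to the first kind of complex, whereas NRIP1 (RIP140) binds the receptors when ligand is present and dampens their activity. RARB is the textbook example of a receptor gene that is itself driven by retinoic acid, through a direct repeat of hexamers in its promoter.

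Depth per library, in M (mega) reads, ranged from 4.67 M to 11.9 M reads. Untreated libraries were the deepest, with a mean of 10.1 ± 1.61 M, followed by ATRA (9.32 ± 1.21 M), DAC+ATRA (6.42 ± 0.781 M) and DAC (5.87 ± 1.15 M, SD, n = 3). Values below are normalised counts, i.e. reads divided by the library's size factor, and are not comparable between genes because they are not scaled to length. All 8 myeloid markers averaged at least 10 normalised counts in every group. Of 12 markers of T cells, B cells, erythroid, epithelial or fibroblast cells, 9 had at most 3 reads in any library. The exceptions were CD3D, CD79A and COL1A1, and COL1A1 rose with ATRA (log2 fold change 3.19, adjusted p = 7.52e-08, limma), DAC (1.35, 0.00437) and DAC+ATRA (2.50, 2.05e-06). CD79A rose with ATRA (2.09, 0.000881), DAC (2.06, 0.00321) and DAC+ATRA (3.17, 1.19e-05), and CD3D was called only as higher in DAC+ATRA than in ATRA cells (2.03, 0.00281). The summed epithelial and fibroblast list ranged from 4.87 to 10.7 normalised counts in untreated, 21.6 to 25.0 in DAC, 64.5 to 86.3 in ATRA and 39.2 to 58.2 in DAC+ATRA libraries, with KRT19 at 0 and EPCAM at no more than 3 reads. The summed B cell list, with MS4A1 at 0, was 2.51 to 5.68 in untreated, 8.71 to 26.7 with DAC, 13.4 to 21.6 with ATRA and 26.6 to 39.8 with DAC+ATRA. The T cell list, with CD2 at 0, was 11.9 to 22.7, 17.4 to 37.6, 2.51 to 10.8 and 21.4 to 27.996 in the same order, and the erythroid list was at 0 but for up to 1.02 with DAC+ATRA. The part of other cell types in the results was not tested. The 5 retinoid-responsive genes examined were CYP26A1, DHRS3, TGM2, CD38 and HIC1. All 5 were called higher with ATRA and with DAC+ATRA (limma), where 26% and 28.9% of all genes tested were called. They were chosen with earlier results of these data known, and CYP26A1 was tested only through its ATRA-treated libraries. Their rise therefore describes these genes and supports nothing further. CYP26A1, the enzyme that degrades retinoic acid, had no read in untreated or DAC libraries. Against untreated it was at least 546-fold higher with ATRA and at least 158-fold with DAC+ATRA, and DAC+ATRA was at least 81.6-fold above DAC. With DAC+ATRA against ATRA, limma called 2 of the 5 genes lower, beside 11.9% of all genes tested. They were CYP26A1 (-1.73, adjusted p = 0.000279) and HIC1 (-0.87, 0.00516). The CYP26A1 call was lost with a pseudocount of 0.1, and the HIC1 call in 6 of 12 fits that left out a library, among others.

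The sequence shown first is the 100 bases before the start of RARB-201, the transcript that carries nearly all RARB reads, because it holds the repeat. It lies in hg38 at chr3:25428163-25428262 on the plus strand, outside the transcript, and is contained in the RefSeq promoter window of RARB (GRCh38.p14). The RARA stretch, at chr17:40341647-40341676 on the plus strand, is shown beside it because RARA holds the same kind of repeat. Capitals mark only the hexamers of the repeat, not every such hexamer in a stretch.
RARB: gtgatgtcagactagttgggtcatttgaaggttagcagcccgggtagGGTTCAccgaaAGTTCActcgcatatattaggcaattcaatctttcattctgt
RARA: caggcgAGTTCAgcgagAGTTCAgccgcat

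The search covered both strands for any pair, in the same orientation, of the hexamer AGGTCA or its variants with 1 or 2 other letters, namely AGTTCA, then GGGTCA, and last GGTTCA, spaced by 1, 2 or 5 bases. In RARB the repeat begins at position -53 from the start. With the 5-base spacer, 31 of 35116 RefSeq promoter windows (250 bases before to 50 after a start) held a match, or 0.0883%. The windows of the 7 genes number 17, and the RARB window was the only one of them with a match at any of the 3 spacings. The 31 windows belong to 29 genes, of which 9 were tested, and 4 of these rose and 1 fell with ATRA, where 26% of all genes were called. RARB and CYP26A1, both among the 9, were tested only because of their reads in ATRA-treated libraries. With spacers of 1 and 2 bases, 46 and 14 windows matched, with 2 of 20 and 1 of 4 tested genes higher and 1 and 0 lower. A wider window of 1000 bases on each side of annotated protein-coding starts (GENCODE 44) was chosen after the data were seen. There, 372 of 78467 starts held the 5-base repeat, or 0.474%. The RARA repeat begins at position -710 from the start of RARA-202, and 265 bases past that of RARA-203, in whose first intron it lies. Only rows matched to GENCODE 44 could be searched there, 22 of the 34 rows of the 7 genes. For RXRB these were 2 of 13 rows and for NCOR1 3 of 4. No searched start of RARG, RXRA, RXRB, NRIP1 or NCOR1 had a repeat at these 3 spacings in that wider window. A match describes letters, not binding.

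RARB and NRIP1 rose with ATRA, with or without DAC, and RXRA fell with DAC+ATRA. A call required an adjusted p under 0.01 in limma on log2(normalised count + 1), Benjamini-Hochberg over all 10642 protein-coding genes tested. Of the 7 genes, 6 passed the filter, which asked for 10 or more normalised counts in 3 or more libraries. RARB and NRIP1 passed it only through the ATRA-treated libraries, so counts over the genes tested describe them and support nothing further.

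With ATRA against untreated, 2 of the 6 were called, both higher, where 26% of all genes tested were called. With DAC+ATRA against untreated it was 3 of 6 (2 higher, 1 lower) beside 28.9% of all genes. With DAC+ATRA against DAC it was 3 of 6 beside 18.8%. With DAC against untreated, limma called 0 of 6, where 7.97% of all genes were called. DAC+ATRA against ATRA likewise gave 0 of 6, beside 11.9%. The interaction, i.e. how far the log2 effect of DAC changed once ATRA was present, gave 0 of 6 beside 1.6%. Of these last 3 comparisons, the counts at an unadjusted p under 0.05 were 0, 1 (RXRA) and 0, and DESeq2 and edgeR called 0 in each. The comparisons share control libraries and are not independent. DAC replicate 3 lay further from DAC replicates 1 and 2 (chi-square per degree of freedom 42.87 and 35.05) than these from each other (5.925). Untreated replicate 3 and ATRA replicate 1 stood apart from their groups in a like way. Without DAC replicate 3, 13.09% of all genes tested were called with DAC against untreated. RARA then gave a log2 fold change of 0.86 (adjusted p = 0.0533, limma), and still 0 of the 6 were called.

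**Figure D1:**
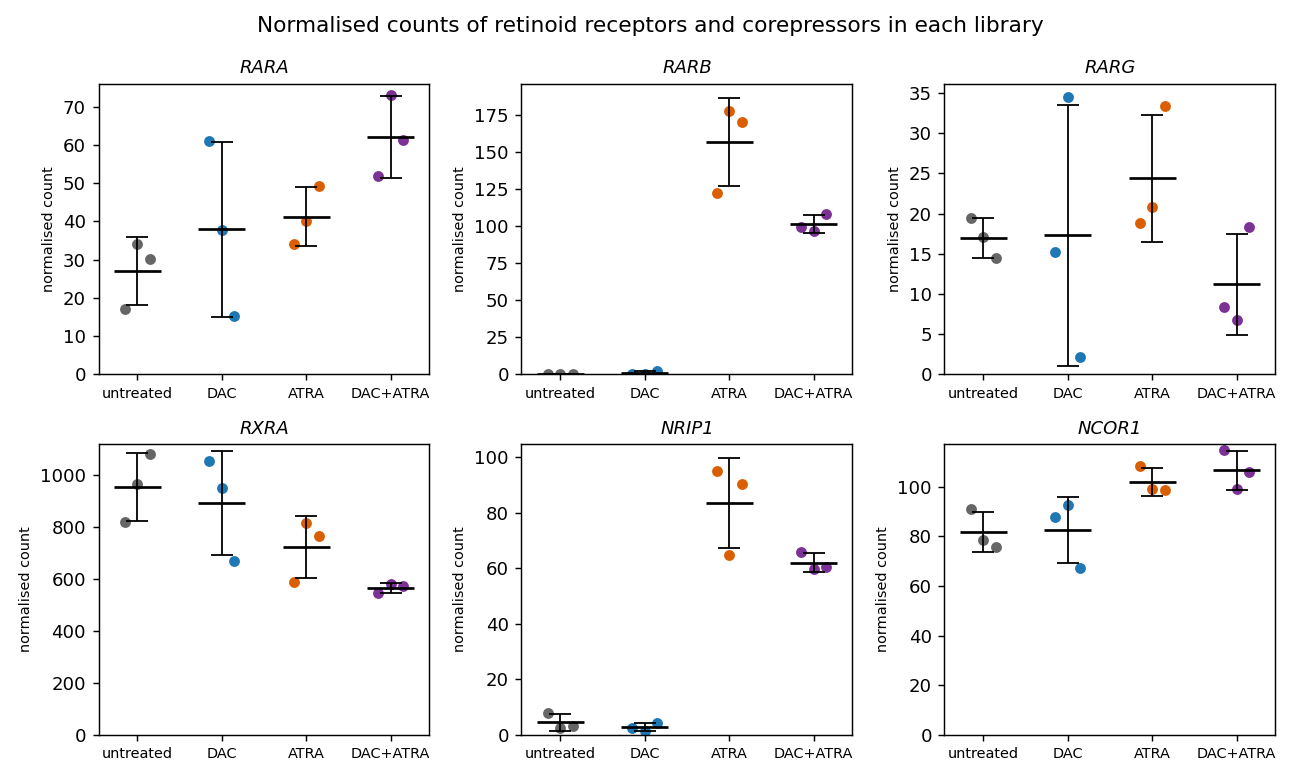
Normalised counts (y axis, linear, from 0) of the 6 genes with reads in the 4 groups (x axis). Points are libraries, horizontal lines means and bars SD (n = 3). The RARB and NRIP1 points with ATRA lie above all points without it, and RXRA is lowest in DAC+ATRA cells.

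RARB (hg38, chr3:24687887-25597932, plus strand) encodes retinoic acid receptor beta. It had no read in any untreated library. In DAC cells it had 0, 0 and 2 reads, the latter 2.18 normalised counts. Thus, RARB was at or under the counting floor of 3 reads in every library without ATRA. With ATRA, the libraries gave 123, 178 and 171 normalised counts. With DAC+ATRA they gave 99.4, 96.8 and 108. All 6 ATRA-treated libraries lay above all others, and the DAC+ATRA libraries lay below the ATRA libraries without overlap. Against the floor of the untreated libraries, the mean of 157 ± 29.9 (SD, n = 3) with ATRA was at least 64.5-fold higher. For DAC+ATRA, at 101 ± 5.99, it was at least 41.7-fold. Against DAC the ratio from 263 to 2 reads of RARB-201 was 119, with an exact 95% counting interval from 32.7 to 990.2. Both DAC reads came from replicate 3, without which DAC cells had no RARB read. Fitted log2 differences of genes at 0 depend on the pseudocount and are no measure of size. Their adjusted p-values (limma) were 1.02e-10 with ATRA, 4.21e-10 with DAC+ATRA and 1.87e-09 for DAC+ATRA against DAC.

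The lower RARB level in DAC+ATRA than in ATRA cells was not called, with a log2 fold change of -0.61 ± 0.44 (SE), a 95% interval from -1.52 to 0.31 and an adjusted p of 0.36. The order was thus untreated and DAC at or near 0, then DAC+ATRA, then ATRA, and the test did not separate the latter pair or the former (adjusted p = 0.44). Of the 3 RARB rows, RARB-201 (ENST00000330688.9, chr3:25428263-25597932) held all reads but 1 in each of 2 ATRA libraries. RARB-203 (ENST00000437042.6), which starts at the same base, was listed at 0 throughout.

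RARA (chr17:40309180-40357643, plus strand) encodes retinoic acid receptor alpha. Untreated libraries gave 17.1, 34.1 and 30.1 normalised counts, and DAC libraries 61.1, 37.6 and 15.2. ATRA libraries gave 34.0, 40.2 and 49.3, and DAC+ATRA libraries 51.8, 73.2 and 61.3. The DAC libraries spanned the range of the untreated libraries, while all DAC+ATRA libraries lay above all untreated and all ATRA libraries. DAC+ATRA against untreated gave a log2 fold change of 1.21 ± 0.38 (SE) with an adjusted p of 0.0159, which missed the threshold of 0.01. It passed with DESeq2 (0.00389) and with edgeR (0.00803), and without DAC replicate 1 (0.00665) or 3 (0.00127) in limma. With the highest transcript row alone (RARA-204), the log2 fold change was 0.62 and the adjusted p 0.282. ATRA alone gave 0.63 (adjusted p = 0.217) and DAC alone 0.33 (0.628). From low to high, the order of the means was untreated, DAC, ATRA, DAC+ATRA. The first and last steps of it were not called (adjusted p = 0.628 and 0.309), and DAC was not tested against ATRA.

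The RARA rows, each a transcript, were also read one by one. RARA-202 (ENST00000394081.7, chr17:40342363-40356795) has 505 bases, its first exon, that no other listed RARA transcript shares. RARA-203 has 228 such bases, RARA-201 107, RARA-204 4 and RARA-206 0. RARA-202 had 1, 2 and 1 reads in untreated and 2, 4 and 2 in DAC libraries. It had 4, 8 and 6 with ATRA and 11, 29 and 15 with DAC+ATRA. As normalised counts, the group means were 1.01 ± 0.537, 3.66 ± 2.27, 4.85 ± 1.19 and 21.1 ± 9.98 (SD, n = 3). Every DAC+ATRA library lay above every library of the other groups. The row reached the filter only through these 3 libraries, so it had to differ from the rest. From 55 against 4 reads, the ratio of DAC+ATRA to untreated was 21.9, with an exact 95% counting interval from 8.08 to 83.2. Against DAC (8 reads) it was 6.24 (2.95 to 15.2) and against ATRA (18 reads) 4.33 (2.50 to 7.83). Intervals from reads cover counting error only.

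RARA-202 was called in limma over the 15040 transcript rows tested, with a log2 fold change of 3.404 ± 0.56 (SE) and an adjusted p of 8.24e-05 for DAC+ATRA against untreated. Over the alternatives this fitted size ran from 2.06 to 4.42. As the row was tested only through its DAC+ATRA libraries, its adjusted p-values describe it and support nothing further. Against DAC the adjusted p was 0.00549, which became 0.0184 without DAC replicate 1 and 0.0218 without DAC replicate 3. It was 0.0170 without the filter on low values, 0.0186 with a pseudocount of 0.1 and 0.0111 with only the compared groups, each too high for a call. Against ATRA, the adjusted p was 0.0293 with limma, 0.00953 with DESeq2 and 0.00796 with edgeR. Its interaction was 0.71 (adjusted p = 0.808). RARA-204 (ENST00000394089.6, chr17:40318281-40356331), which starts further upstream, was not called in any comparison. Its mean was 24.6 ± 7.73 in untreated and 30.0 ± 24.2 in DAC cells, against 34.1 ± 8.50 after ATRA and 37.5 ± 8.28 after DAC+ATRA (SD, n = 3).

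RARA-202 and RARA-203, the transcripts that start next to the printed repeat, were added up after their values were seen. Together they held 5 of 112 RARA reads in untreated cells, or 4.46% (exact 95% interval 1.47 to 10.1). The share was 10.5% (4.90 to 18.9) with DAC, 15.9% (10.5 to 22.7) with ATRA and 38.3% (30.8 to 46.2) with DAC+ATRA. These intervals pool the reads of a group and cover counting error only, not the spread between libraries. By library, the DAC+ATRA share was 40.5%, 49.2% and 25.0%. Each of these lay above all other libraries, of which ATRA replicate 1 was highest with 21.1%. How reads shared by several transcripts were assigned is not given in the sources used here. NRIP1-201, for instance, drew all NRIP1 reads although GENCODE 44 gives it no base of its own. RARA-204, with 4 bases of its own, had up to 52 reads in a library. Thus, row values and the shares taken from them may depend on the counting.

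**Figure D2:**
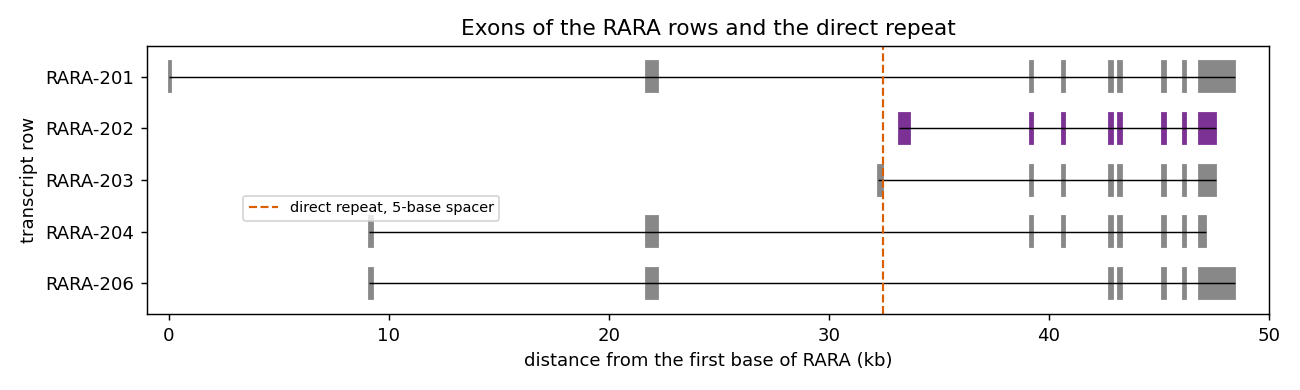
Exons (boxes) of the 5 RARA transcript rows in the table, against the distance in kb from the first base of RARA (x axis). RARA-202, in purple, starts downstream of the direct repeat with a 5-base spacer (dashed line), and RARA-201, RARA-204 and RARA-206 start upstream of it.

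**Figure D3:**
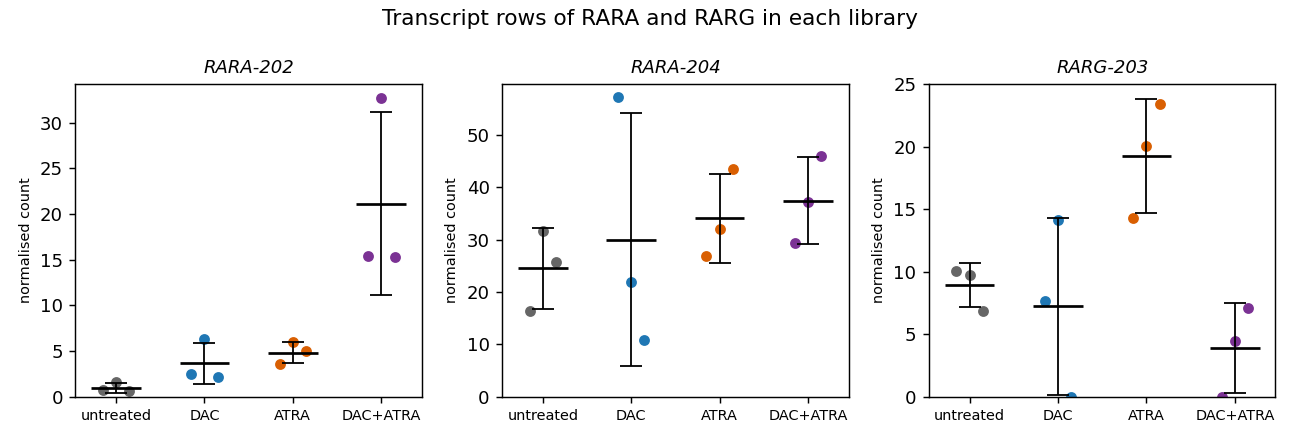
Normalised counts (y axis, linear, from 0) of 3 transcript rows in the 4 groups. Points are libraries, lines means and bars SD (n = 3). RARA-202 is highest in all 3 DAC+ATRA libraries, whereas the RARA-204 groups overlap and RARG-203 is lower in DAC+ATRA than in ATRA cells.

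RARG (chr12:53210567-53232980, minus strand) encodes retinoic acid receptor gamma. Untreated libraries gave 19.4, 17.1 and 14.4 normalised counts and DAC libraries 15.3, 34.5 and 2.18. ATRA libraries gave 18.8, 20.8 and 33.4 and DAC+ATRA libraries 8.40, 6.75 and 18.4. The DAC libraries enclosed all other values, with replicate 3 at 2 reads. ATRA and DAC+ATRA did not overlap, by a narrow margin. No comparison was called, and the intervals were wide. DAC+ATRA against ATRA gave a log2 fold change of -1.13 ± 0.61 (SE, 95% interval -2.42 to 0.15, adjusted p = 0.21).

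The main RARG row, RARG-203 (ENST00000425354.7, chr12:53210569-53232209), had 16, 27 and 28 reads with ATRA and 0, 4 and 7 with DAC+ATRA. Untreated libraries held 13, 12 and 11 and DAC libraries 6, 9 and 0. The log2 fold change of DAC+ATRA against ATRA was -2.49 ± 0.82 (SE), and its adjusted p of 0.0454 (limma) became 0.00392 without DAC replicate 3. Thus, the row was called in 1 of 12 fits that each left out a library.

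RXRA (chr9:134317098-134440585, plus strand) encodes retinoid X receptor alpha, the common partner of the other receptors. Untreated libraries gave 819, 968 and 1081 normalised counts and DAC libraries 1056, 952 and 671. ATRA libraries gave 590.4, 818 and 767 and DAC+ATRA libraries 546, 583 and 574. All DAC+ATRA libraries lay below the libraries of every other group, and ATRA libraries lay just below untreated ones. DAC+ATRA against untreated gave a log2 fold change of -0.74 ± 0.16 (SE, adjusted p = 0.00088), i.e. 0.598 times the untreated level. This call held in every alternative but the one that required more than a 2-fold change.

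Against DAC, RXRA fell by 0.63 on the log2 scale with an adjusted p of 0.00512 (limma). This call was lost without DAC replicate 1 (0.0297) or 2 (0.0264) and without DAC+ATRA replicate 1 (0.0237), 2 (0.0163) or 3 (0.0184). Without DAC replicate 3, the lowest of its group, the log2 fold change was -0.82. ATRA alone gave -0.40 (adjusted p = 0.0528), DAC alone -0.12 (0.689) and DAC+ATRA against ATRA -0.34 (0.14). From high to low, the order of the means was untreated, DAC, ATRA, DAC+ATRA, of which the step from DAC to ATRA was not tested. RXRA-202 (ENST00000481739.2, chr9:134326455-134440585) carried nearly all of the reads.

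RXRB (chr6:33193588-33200665, minus strand) encodes retinoid X receptor beta. All 13 of its rows were listed at 0 in all 12 libraries. A count of 0 allows up to 3 reads per library, i.e. 1.88 to 4.70 normalised counts. Only 2 of the 13 rows matched a transcript of GENCODE 44 on the primary assembly, and the cause of the zeros was not tested. RXRB was therefore not measured here, and nothing is said of its level.

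NRIP1 (chr21:14961235-15065936, minus strand) had 7.78, 2.44 and 3.14 normalised counts in untreated and 2.54, 1.57 and 4.35 in DAC libraries. These were 10, 3 and 5 reads in untreated and 2, 1 and 4 in DAC libraries, at or near the floor of 3 reads. ATRA libraries gave 94.97, 64.7 and 90.3, and DAC+ATRA libraries 65.8, 59.7 and 60.2. All ATRA-treated libraries lay above all others, whereas ATRA and DAC+ATRA overlapped. The log2 fold change was 4.06 ± 0.39 (SE, adjusted p = 9.64e-08) with ATRA. It was 3.65 (4.32e-07) with DAC+ATRA and 4.10 (1.21e-07) for DAC+ATRA against DAC. Over the alternatives, the last of these ran from 3.11 to 4.52. From 301 against 18 reads, the ratio of ATRA to untreated was 18.8, with an exact 95% counting interval from 11.7 to 32.2. From 159 against 7 reads, the ratio of DAC+ATRA to DAC was 20.6 (9.77 to 52.1). DAC+ATRA against ATRA gave -0.40 (95% interval -1.22 to 0.41, adjusted p = 0.511), and the interaction was 0.05 (-1.11 to 1.203, adjusted p = 0.985).

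NCOR1 (chr17:16029065-16218185, minus strand), the corepressor of the unliganded receptor, moved within a narrow range. Untreated libraries gave 91.0, 78.8 and 75.9 normalised counts and DAC libraries 87.8, 92.5 and 67.5. ATRA libraries gave 108, 99.0 and 98.6 and DAC+ATRA libraries 115, 99.1 and 106. Each ATRA-treated library lay above each library without ATRA, yet no comparison was called. ATRA gave a log2 fold change of 0.32 (95% interval -0.06 to 0.69, adjusted p = 0.181). DAC+ATRA gave 0.38 (0.0049 to 0.75, adjusted p = 0.1) and DAC 0.0038 (-0.37 to 0.38, adjusted p = 0.993). Its reads fell on 3 rows. NCOR1-202 (ENST00000395848.5) averaged 28.9 ± 2.62 in untreated and 46.2 ± 4.88 in DAC+ATRA cells, and NCOR1-201 (ENST00000268712.8) 40.4 ± 9.73 and 44.6 ± 2.71 (SD, n = 3).

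**Figure D4:**
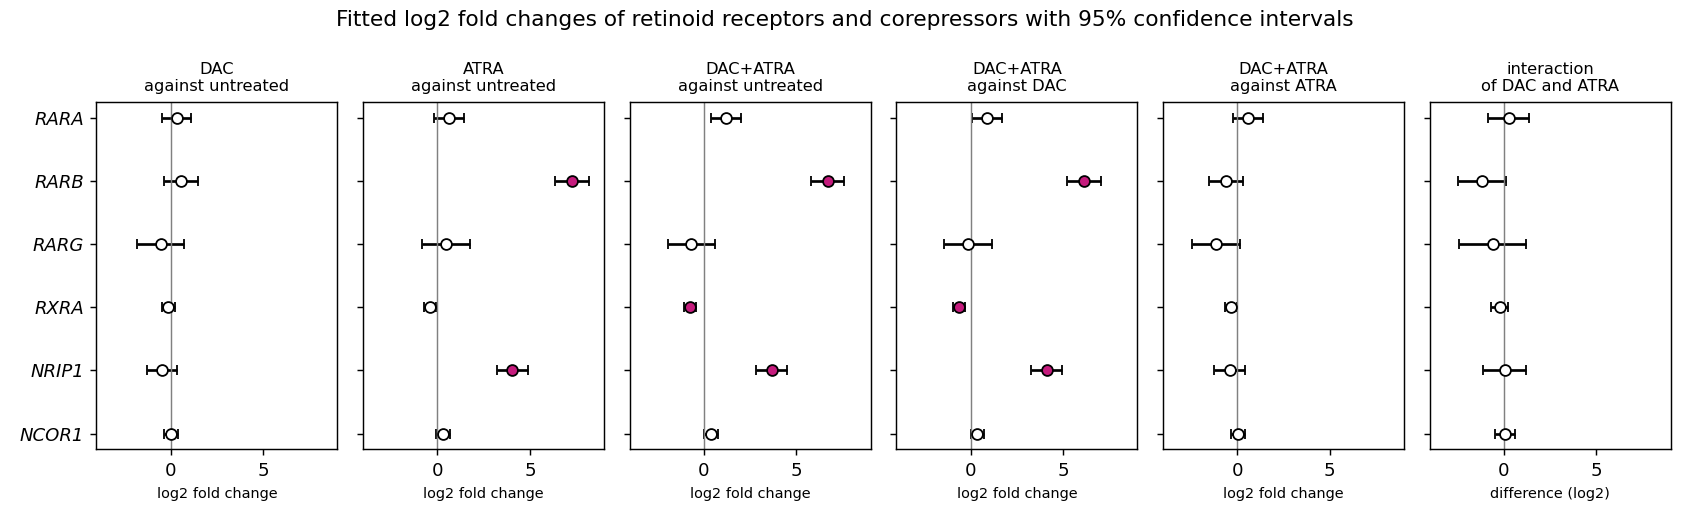
Fitted log2 fold changes (x axis) of the 6 genes tested (y axis) in 5 comparisons and, at the right, the interaction. Bars are 95% confidence intervals, and filled points have an adjusted p under 0.01. Only RARB, NRIP1 and RXRA have filled points, and none lies in the comparisons of DAC with untreated and of DAC+ATRA with ATRA or in the interaction.

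At the level of transcript rows, the 7 genes had 34 rows, of which 16 had a read and 9 were tested. RARB-201 and NRIP1-201 passed the filter only through ATRA-treated libraries, and RARA-202 only through DAC+ATRA libraries. The counts of rows called therefore describe these rows and support nothing further. With ATRA against untreated, 2 of 9 were called (RARB-201 and NRIP1-201) beside 19.5% of all rows. With DAC+ATRA against untreated, 4 of 9 were called beside 21.8%, the others being RXRA-202 and RARA-202. The same 4 were called for DAC+ATRA against DAC, beside 14.1%. This count fell to 2 without DAC replicate 1 and without DAC+ATRA replicate 1, 2 or 3. Without a DAC+ATRA library, RARA-202 no longer reached the filter. With DAC against untreated, limma called 0 of 9 beside 5.42%, with 0 at an unadjusted p under 0.05. DAC+ATRA against ATRA gave 0 of 9 beside 8.54%, with 3 at an unadjusted p under 0.05 and 1 called by DESeq2 and by edgeR. The interaction gave 0 of 9 beside 0.964%, with 0 at an unadjusted p under 0.05.

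The proteins around the receptors were followed by 3 lists. Of 12 corepressor partners, all tested, 2 rose with ATRA and 4 with DAC+ATRA, and limma called none lower. Over all genes tested, 26% and 28.9% were called. The list's median log2 fold change was 0.05 with ATRA and 0.19 with DAC+ATRA, beside -0.04 and -0.0039 over all genes. SIN3B, a scaffold for histone deacetylases, rose by 1.14 with ATRA and 0.93 with DAC+ATRA on the log2 scale (adjusted p = 9.76e-05 and 0.000727, limma). CTBP2, a dimeric corepressor, rose by 1.18 and 0.82 (7.61e-05 and 0.00217). Its second call was lost without untreated replicate 1 or 2 or DAC+ATRA replicate 1, with adjusted p from 0.0117 to 0.0145. With its highest transcript row alone, CTBP2 was not called in either comparison, at an adjusted p of up to 0.121. HDAC1, a histone deacetylase, rose by 0.44 with DAC+ATRA (0.00152). GPS2, a subunit of the NCOR complex, rose by 1.05 (0.00235), and this call was lost without untreated replicate 1 or 3, with adjusted p of 0.0132 and 0.015. HDAC3, TBL1X and TBL1XR1, further parts of that complex, were not called, nor was HDAC2, another histone deacetylase.

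Against DAC, 1 of 12 corepressor partners was called with DAC+ATRA, beside 18.8% of all genes tested. It was CTBP2 (0.75, adjusted p = 0.00648, limma). That call was lost in 10 of 27 alternatives. Among them were 6 of 12 fits that left out a library (DAC replicate 2 or 3, ATRA replicate 2, or any DAC+ATRA replicate), with adjusted p from 0.0101 to 0.0288. It was also lost with the replicate block, only the compared groups, a required fold over 2 and the highest transcript row alone. The adjusted p reached up to 0.214 over the alternatives. Among coactivators, 11 of 12 were tested, and 2 rose and 1 fell with ATRA, beside 26% of all genes. With DAC+ATRA against untreated 1 of 11 was called, beside 28.9%. The median log2 fold change of the list was 0.01 with ATRA and 0.02 with DAC+ATRA. NCOA3, a p160 coactivator, gave 26.4, 25.2 and 38.9 normalised counts in untreated libraries and 123, 132 and 171 with ATRA. DAC+ATRA libraries gave 153, 170 and 176, and DAC libraries 19.1, 32.9 and 21.8. It rose by 2.21 with ATRA and 2.45 with DAC+ATRA on the log2 scale (4.69e-07 and 1.3e-07), without overlap between libraries with and without ATRA. KAT2B, a histone acetyltransferase, rose by 0.88 with ATRA (0.000203) and was lower by 0.95 with DAC+ATRA than with ATRA (-0.95, adjusted p = 0.000256). PRMT1, an arginine methyltransferase, fell by 0.82 with ATRA (0.00411), a call lost without untreated replicate 2 or 3 or ATRA replicate 2 or 3 (0.0103 to 0.0345) and with its highest transcript row alone.

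Of 14 other receptors that pair with RXR, 9 were tested. With ATRA against untreated, limma called 1 of them, lower, beside 26% of all genes tested. DESeq2 and edgeR called 3, as NR4A2 (0.78, adjusted p = 0.0193 in limma) and NR1H2 (0.81, 0.0251), a liver X receptor, were called higher there. THRA, a thyroid hormone receptor, fell by 0.80 (adjusted p = 0.00401, limma). The THRA call was lost without any 1 of the untreated replicates 1, 2 and 3 and without ATRA replicate 1 (0.0135 to 0.0258). Against DAC, THRA was lower with DAC+ATRA (-0.996, 0.000949). NR4A1, an orphan receptor, was lower with DAC+ATRA than in untreated (-2.35, 0.000579) and ATRA cells (-3.52, 2.78e-05). It had 2 reads, or 2.04 to 2.80 normalised counts, in each DAC+ATRA library, under the floor of 3 reads. Other groups gave 9.74 to 21.0 in untreated, 4.35 to 12.5 in DAC and 20.9 to 63.3 in ATRA libraries. Against DAC, NR4A1 was not called with DAC+ATRA (-1.28, adjusted p = 0.0515, limma). At the floor its fitted size varied, from -4.17 to -2.54 against ATRA over the alternatives. NR4A2, a related receptor, was also lower with DAC+ATRA than with ATRA (-1.28, 0.00109), a call lost with the highest transcript row alone (-0.29, 0.531). With DAC alone, limma called 0 genes of each of the 3 lists, where 7.97% of all genes tested were called. In list order, 4, 1 and 2 genes had an unadjusted p under 0.05. DESeq2 and edgeR each called 1 coactivator there (CARM1) and no other gene of these lists. Limma called CARM1 without DAC replicate 3 (adjusted p = 0.00479). The interaction was called for 0 of each list, beside 1.6% of all genes tested. It had an unadjusted p under 0.05 in 1, 3 and 2 genes, while DESeq2 called KAT2B.

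**Figure D5:**
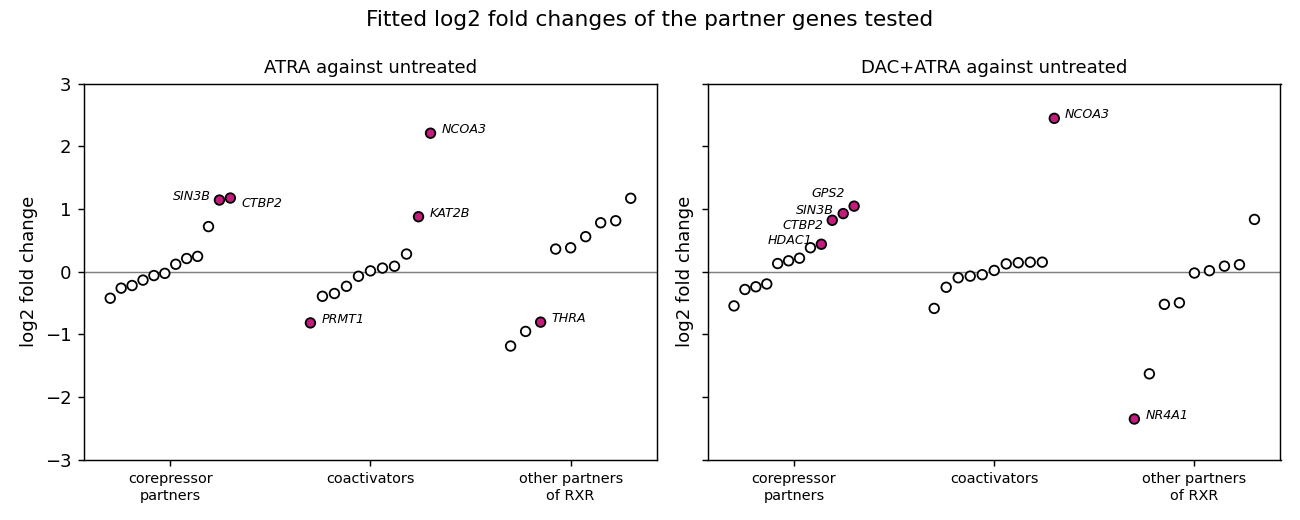
Log2 fold changes (y axis) of the partner genes tested in 3 lists (x axis), with ATRA (left) and DAC+ATRA (right) against untreated. Each point is a gene, ordered by value within its list, and filled points have an adjusted p under 0.01. NCOA3 is the highest point in both panels and NR4A1 the lowest with DAC+ATRA.

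The genes whose log2 values ran most closely with each member were taken over the 12 libraries. These are descriptions, since the libraries share treatment groups. RARB ran with MAN1A1 (r = 0.996), OGFR (0.995) and B4GALT5 (0.995), and NRIP1 with SIGLEC6 (0.99), CCR3 (0.989) and HIC1 (0.988). RARB and NRIP1 had r = 0.976 with each other, and RXRA had -0.757 and -0.769 with them. RXRA ran with BLVRB (0.958), CITED2 (0.948) and PNPLA2 (0.929), all lower with DAC+ATRA than in untreated cells by their group means. RARA ran with ARHGEF1 (0.969), AP5Z1 (0.966) and STK10 (0.962). NCOR1 ran with CFL1 (0.929), RELT (0.919) and ATF7IP2 (0.91), and RARG with TMEM14B (0.915), VPS28 (0.893) and SELENOH (0.89).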

How the data were processed

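Total RNA of 12 MOLM-13 libraries was depleted of ribosomal RNA and sequenced as strand-specific paired-end libraries. Per the labels and the study's methods, the authors checked reads with FastQC, aligned them to hg38 with STAR, counted them per transcript with HTSeq and normalised them in DESeq2; versions and the annotation release are not given in the sources used here. The deposited values are normalised counts (a signal: read counts divided by 1 size factor per library), with 100502 transcript rows. Whole reads were recovered from the deposited values, 100% of which were whole multiples of 1 read in each library within 0.01. Columns named as controls were taken as the untreated libraries with the same number.

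Rows were summed per gene symbol. Genes and lists were chosen with earlier results of these data known. Limma (3.58.1, R 4.3.3) was fitted with trend to log2(normalised count + 1) of all 12 libraries, with 1 coefficient per group, for protein-coding genes with at least 10 in at least 3 libraries. Adjustment followed Benjamini-Hochberg, separately for each of the 6 comparisons, and the threshold of 0.01 is that of the study. Named genes were the 7 genes, their partner lists, 5 retinoid-responsive genes and, for each tested gene, the 3 with the highest Pearson correlation. Named rows averaged at least 10 in a group. There were 27 alternatives, including DESeq2 (1.42.0) and edgeR (4.0.16) on recovered reads and leaving out each library in turn. The scripts were tested on simulated data. Libraries of a group differed by more than sampling noise. Transcripts were matched to GENCODE 44, which holds 88.9% of rows and 22 of the 34 rows of the 7 genes; the motif search used hg38 and RefSeq promoter windows.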

Additional observations from a re-analysis of the deposited data

Results flagged for a closer look

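Effects of DAC without and with ATRA were compared by the interaction (limma). None of the 6 receptor and corepressor genes tested passed, beside 1.6% of all genes. DHRS3, a retinal reductase of the retinoid-responsive genes, fell with DAC alone and had an interaction of 1.68 on the log2 scale (adjusted p = 0.000186), kept in all 26 alternatives. TGM2, a transglutaminase, had an interaction of 0.87 (adjusted p = 0.00263), lost in 7 of 12 fits that left out a library (untreated replicate 1 or 2, ATRA replicate 2 or 3, or any DAC+ATRA replicate), with adjusted p from 0.01 to 0.0143. In CD38, each DAC library lay below each untreated library while each DAC+ATRA library lay above each ATRA library, and the interaction of 0.45 was not called (adjusted p = 0.0749). In the coactivator NCOA2, the DAC libraries lay above untreated and the DAC+ATRA libraries below the ATRA libraries, with an interaction of -0.24 that was not called (adjusted p = 0.411).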

How the results depend on the processing

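Over 27 alternatives, the number of the 7 genes called stayed at 2 with ATRA, between 2 and 4 with DAC+ATRA against untreated and between 2 and 3 against DAC, and at 0 in the other comparisons. Of 36 fold changes, 22 kept direction and call in every alternative, 2 lost a call (both of RXRA), 1 gained one (RARA) and 11 changed sign, none of them called. With the replicate number as a block, the calls of the 7 genes were 2 with ATRA and 3 with DAC+ATRA against untreated and against DAC. Same-numbered libraries of different groups correlated in their deviations between -0.263 and 0.114, with 2 of 18 pairs over 0.1 and 1 of 12 libraries closest to its own number. With 3 libraries a group, these values cannot show whether the numbers pair the libraries. The block removed the call of CTBP2 against DAC.

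Transcript rows called for DAC+ATRA against ATRA were 0 and became 1 with DESeq2, with either edgeR fit and with a pseudocount of 5, 2 with only the compared groups and 2 at a threshold of 0.05, and 0 to 1 when leaving out a library (1 without DAC replicate 3). For DAC+ATRA against DAC, 4 became 2 with only the compared groups and 2 to 4 when leaving out a library. With the filter of 50, RARG and the rows RARA-202, RARA-204, RARG-203, NCOR1-202 and ENST00000395857.7 (of NCOR1) could not be fitted.

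Sign changes were limited to uncalled log2 differences, and the fits in which a sign changed had adjusted p of at least 0.398. Leaving out a library gave for NCOR1 -0.084 to 0.14 with DAC and -0.078 to 0.15 in the interaction. For NRIP1 it gave -0.36 to 0.32 in the interaction. For RARA it gave -0.11 to 0.86 with DAC and -0.27 to 0.69 in the interaction. For RARG it gave -1.31 to 0.43 with DAC, -1.10 to 0.64 for DAC+ATRA against DAC and -1.56 to 0.18 in the interaction. For RXRA it gave -0.25 to 0.078 with DAC. For RARA-204 it gave -0.58 to 0.56 with DAC, -0.017 to 0.32 for DAC+ATRA against ATRA and -0.43 to 0.72 in the interaction, and for RARG-203 -1.74 to 0.22 with DAC and -1.68 to 0.40 for DAC+ATRA against DAC. With equal totals, DAC gave -0.023 for NCOR1 and -0.0030 for RARA-204. With the highest row per gene, NCOR1 gave -0.22 for DAC+ATRA against ATRA, -0.040 against DAC and -0.42 in the interaction. A pseudocount of 5 gave -0.14 for the interaction of NRIP1. The interaction of RARA-204 was -0.15 with DESeq2, -0.13 with edgeR and -0.15 with edgeR and TMM factors. The cause of these shifts was not tested. DAC libraries had the lowest mean depth, and RARA and RARG rest on few reads there.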
